A study of Rattus norvegicus with 18 samples.

Results

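The extracellular matrix genes described here are collagens, laminins and the proteins of scar matrix, measured by RNA sequencing in rat cerebral cortex after subarachnoid hemorrhage (SAH). They were found by gene symbol from a list of 43 named genes, chosen with earlier results of these data known. Of the 43, 41 had a row in the count table of 30735 genes. All 41 passed the filter on low counts and stood among the 18444 genes tested. Col6a3, a chain of the collagen VI microfibril, and Hspg2, which encodes the basement membrane proteoglycan perlecan, had no row under these symbols and were not analysed here as members.

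The 18 libraries came from adult Sprague Dawley rats, 1 library per rat, in 3 groups of 6. Rats of the SAH 1d and SAH 7d groups had an endovascular perforation, in which a filament passed up the internal carotid artery pierces an artery at the base of the brain, and their cortex was taken on day 1 or day 7. In sham rats the operation was done but no artery was pierced, no genotype or drug differed between groups, and there was a single sham group for both times. The sources differ on whether the cortex of the operated side or of both sides was taken, so how near the sampled tissue lay to the bleed is not known.

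Collagen chains assemble in the endoplasmic reticulum, where prolyl and lysyl hydroxylases modify them and the chaperone Hsp47, encoded by Serpinh1, holds the triple helix until it is exported. Healthy brain holds little fibrillar collagen. Its matrix lies mainly in the meninges and in the basement membranes of vessels and of the glial surface, where type IV collagen and laminin networks are linked by nidogens and perlecan. After injury, fibroblasts of the meninges and vessel walls can lay down fibrillar collagen, fibronectin, periostin and small leucine-rich proteoglycans in a scar.

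Total counts ranged from 27270026 to 38271014 per library, and levels are given as CPM, a gene's count scaled to a common library total after normalization by the trimmed mean of M values. The neuron markers Snap25, Syt1 and Slc17a7 lay between 489.8 and 4410.1 CPM in every library, as the tissue label says. SAH 7d-5 and SAH 1d-3 stood apart from the other libraries of their groups, also for the members. Counts of called members are given with and without them, and so are the values of part of the members. Marker lists of other tissue differed between libraries as well. The mean log2 CPM of the 6 choroid plexus genes was 4.60 in SAH 1d-4 and 5.03 in SAH 1d-6, against -1.31 to 1.82 in the other 16 libraries, and that of the 12 genes of meningeal fibroblasts was 4.05 in sham-1 and 4.26 in sham-3, against 3.32 to 3.53 in the other sham libraries.

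**Figure D1:**
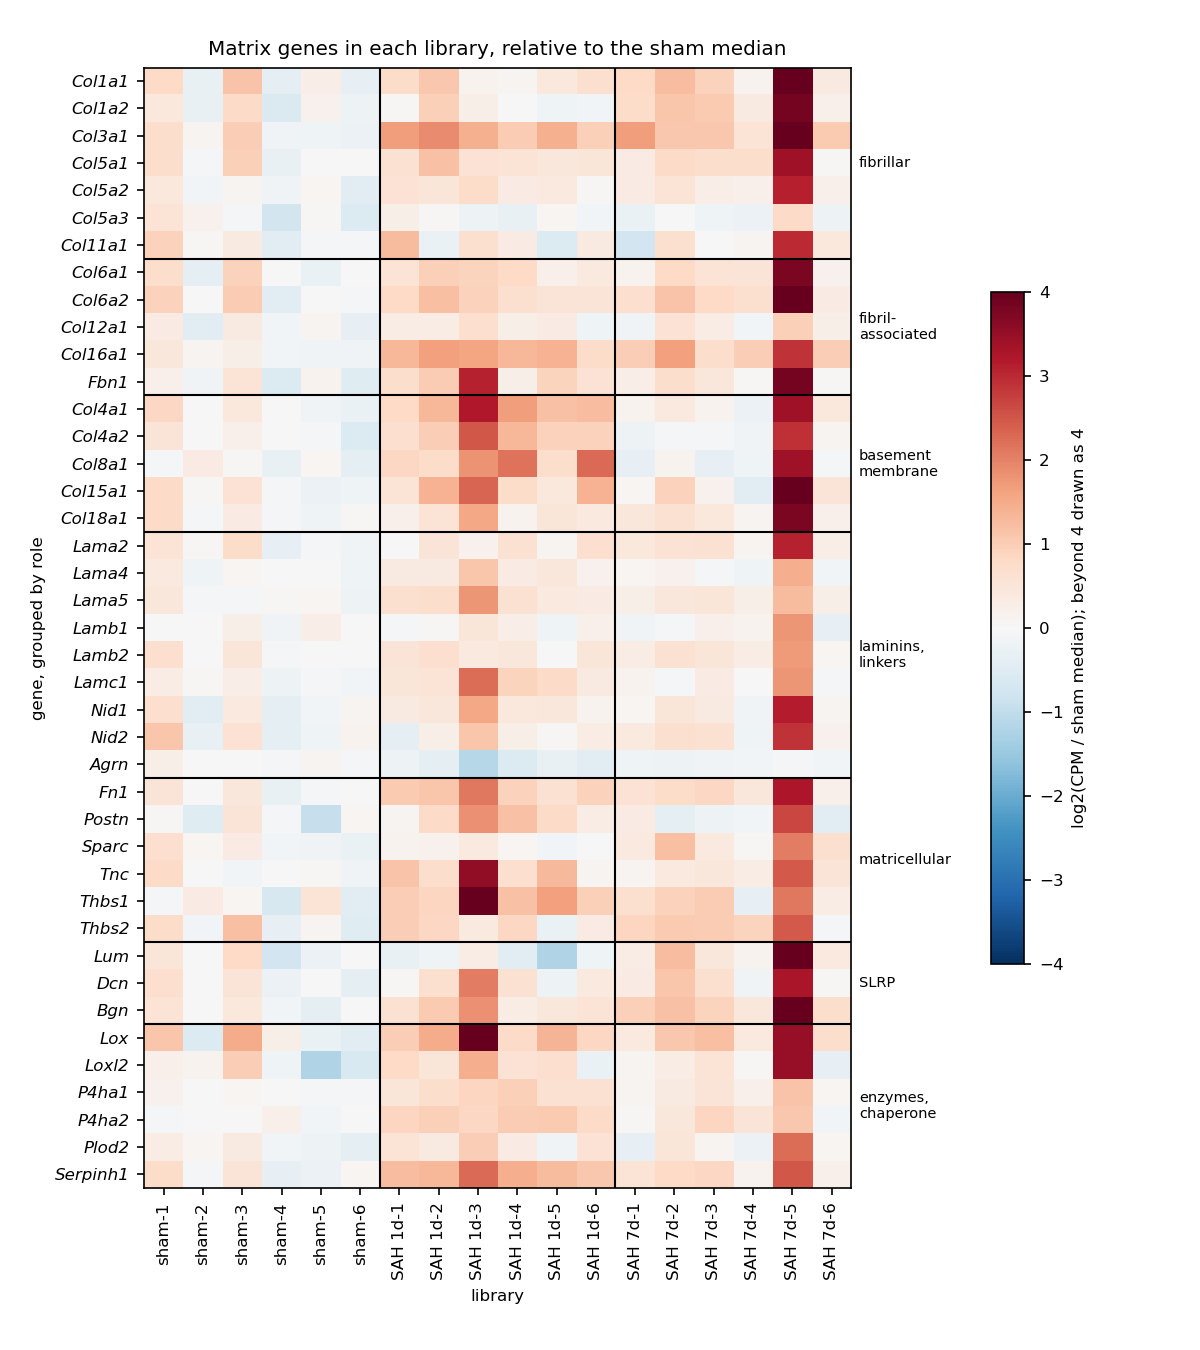
Level of the 41 members (rows, grouped by role) in each of the 18 libraries (columns), drawn as log2 of CPM over the median of the 6 sham libraries of that gene, with values beyond 4 drawn as 4. Nearly every row is red in SAH 7d-5, which was the highest of the 18 libraries for 35 members, and SAH 1d-3 is the darkest column of the SAH 1d group for Col4a1, Col4a2, Fbn1, Tnc, Thbs1 and Lox.

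Levels of different genes were compared only per length, in FPKM, a gene's fragments scaled to a common library total and divided by its length in kilobases. In sham cortex Sparc, a collagen-binding matricellular glycoprotein, had the highest level at 227 ± 51.5 FPKM (SD, n = 6). Serpinh1 followed at 23.1 ± 6.26 FPKM and P4ha1, the catalytic subunit of a prolyl 4-hydroxylase, at 22.3 ± 0.894 FPKM, and these neighbours overlapped. The proteoglycan genes Dcn at 13.8 ± 3.71 FPKM and Bgn at 12.8 ± 2.74 FPKM overlapped with each other and with Agrn at 12.8 ± 0.965 FPKM. Among fibrillar chains, Col1a2 stood at 9.92 ± 3.40 FPKM and Col3a1 at 7.46 ± 2.73 FPKM. The lowest member was Col8a1 at 0.371 ± 0.0735 FPKM. Summed over the 7 fibrillar collagen chains, sham libraries held 20.8 to 46.4 FPKM, and the 2 highest were sham-3 and sham-1.

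The comparison of SAH 1d with sham asked which matrix genes had changed 1 day after the bleed. Of the 41 members, 19 rose and 1 fell at an adjusted p under 0.05 in edgeR's quasi-likelihood test, against 14.9% of all tested genes that rose and 10.5% that fell. At a fold of at least 2, 13 members rose against 5.57% of all tested genes. The median log2 fold change was 0.56 over the members and 0.01 over all tested genes, and 37 of the 41 members had a value above 0, against 50.9% of all tested genes. For 9 members every SAH 1d library lay above every sham library (7.88% of all tested genes) and for 1 member every SAH 1d library lay below (5.41%). The members were chosen with earlier results of these data known, so these shares describe the set and are no test of it. In bulk tissue, more cells of a type and more RNA per cell cannot be told apart.

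These calls depended on which libraries shared the estimate of the spread. With all 18 libraries in 1 fit, 6 members rose (8.18% of all tested genes), namely Col16a1, Lama5, Thbs1, P4ha1, P4ha2 and Serpinh1, and Agrn fell (5.17%). The other 13 rises were not called there, with adjusted p-values of 0.0520 for Tnc, 0.0611 for Lamc1, 0.0713 for Col4a1, 0.0848 for Col8a1, 0.0933 for Col4a2, 0.108 for Fn1, 0.142 for Fbn1, 0.172 for Postn, 0.200 for Lama4, 0.307 for Col3a1, 0.310 for Col15a1, 0.356 for Bgn and 0.516 for Col5a2. The gene-by-gene values that follow are from the fit of SAH 1d and sham alone.

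The rises were largest among basement membrane collagens, with 4 of 5 called and a median log2 fold change of 1.31, and among matricellular and adhesive proteins, with 4 of 6 called and a median of 1.05. Of the collagen-modifying enzymes and chaperone 3 of 6 rose, of the laminins and linkers 3 of 9 rose and 1 fell, of the fibrillar collagens 2 of 7 rose, of the fibril-associated and microfibril genes 2 of 5 rose, and of the small leucine-rich proteoglycans 1 of 3 rose. Without SAH 1d-3, 18 members rose (15.4% of all tested genes) and 1 fell (13.0%), 6 rose at least 2-fold (4.54%), and the median log2 fold change was 0.39. Without SAH 1d-4 and SAH 1d-6, the libraries with choroid plexus markers, 20 members rose and 0 fell, against 13.1% and 7.52% of all tested genes. Without sham-1 and sham-3, the sham libraries with the most fibroblast marker RNA, 27 members rose and 0 fell, against 12.9% and 9.03% of all tested genes. These 2 also had the highest summed FPKM of the members in sham (559 and 504, against 339 to 408 in the others). Leaving them out lowers the sham level of the members, so a higher count follows in part from that choice. SAH 1d-2, with a fibroblast list of 4.29, was kept. The 2 fits that left out a pair of libraries were not among those planned. The count fell to 11 without sham-2 (11.9% of all tested genes), to 13 without sham-4 (11.8%) and to 12 without sham-5 or without sham-6 (11.4% each), and 11 of the 19 rises held in each of the 12 fits that left out 1 library.

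**Figure D2:**
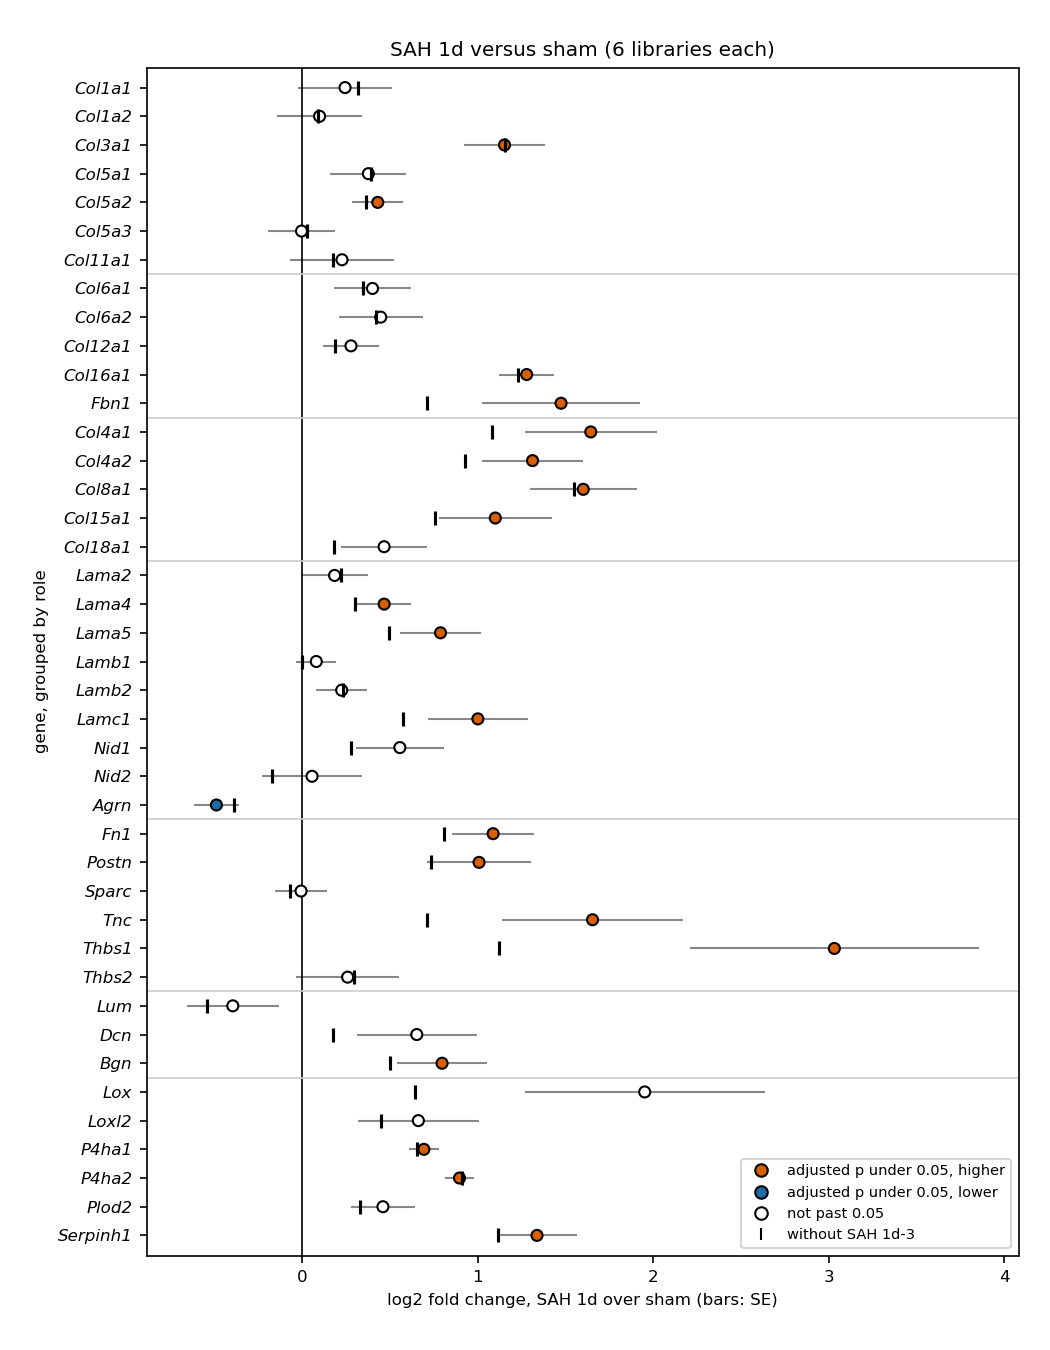
Log2 fold change of each member in SAH 1d over sham (circles, 6 libraries a group, bars are standard errors of the quasi-likelihood fit), filled where the adjusted p was under 0.05, with a tick for the value without SAH 1d-3. For P4ha2, Col16a1 and Col3a1 the tick lies on or beside the circle, and for Thbs1, Tnc, Lox and Fbn1 it lies far to its left.

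P4ha1 and P4ha2, which encode the catalytic subunits of the enzyme that hydroxylates proline in procollagen, had the smallest standard errors of the 41 members. P4ha2 lay between 13.4 and 16.5 CPM in the sham libraries, with a median of 14.5, and between 24.5 and 29.7 CPM in the SAH 1d libraries, with a median of 27.2. No library of either group reached the other, and SAH 1d-3 was within the range of its group. P4ha2 rose by 0.90 on the log2 scale (SE 0.0801, adjusted p = 2.31e-05). Its paralogue P4ha1 rose from a median of 50.3 CPM (47.2 to 56.5) to 79.4 CPM (69.9 to 97.3), a log2 fold change of 0.69 (SE 0.0863, adjusted p = 0.000197).

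Serpinh1 lay between 36.2 and 75.2 CPM in sham, with a median of 45.1, and between 96.1 and 218 CPM in SAH 1d, with a median of 112. The groups did not overlap, SAH 1d-3 was the highest library, and sham-1 and sham-3 were the highest of their group. Serpinh1 rose by 1.34 (SE 0.229, adjusted p = 0.00159), and by 1.12 without SAH 1d-3. P4ha1, P4ha2, Serpinh1 and the collagen gene Col16a1 were the 4 members whose rise was called in all 24 alternative fits. The crosslinking enzyme genes Lox and Loxl2 and the lysyl hydroxylase gene Plod2 did not pass. Lox had a log2 fold change of 1.95 (SE 0.684, adjusted p = 0.0514) with 127 CPM in SAH 1d-3 and 10.2 to 16.9 CPM in the rest of its group, and without SAH 1d-3 the value was 0.64. Sham-3, at 16.8 CPM, reached the upper end of that range.

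The stretches of DNA before the starts of Serpinh1 and P4ha2 are shown as examples that hold a searched motif. Both genes rose in all 24 alternative fits. P4ha1 and Col16a1 also did, but no match was listed for them and they are not shown. Heat shock and hypoxia response motifs are textbook elements of such promoters, and their part in the rises was not tested. All sequences are from RefSeq, assembly GRCr8, whose promoter table held 29 of the 41 members. The heat shock pair was searched as GAANNTTC or TTCNNGAA and the hypoxia response core as ACGTG, on both strands. In the 30 bases of Serpinh1, chr1:163062991-163063020 on the minus strand, capitals mark 2 overlapping heat shock pairs that begin 35 bases before the transcript start of the table. RefSeq's span of the gene reaches further upstream, so this stretch lies within the annotated gene. In the 250 bases before P4ha2, chr10:38743644-38743893 on the plus strand, capitals mark 2 hypoxia response cores, which begin 133 and 41 bases before the start. The same stretch also holds a heat shock pair, ttcccgaa, which is left in lower case.
Serpinh1: tttccaactTTCCAGAAGTTTCttaggaca
P4ha2: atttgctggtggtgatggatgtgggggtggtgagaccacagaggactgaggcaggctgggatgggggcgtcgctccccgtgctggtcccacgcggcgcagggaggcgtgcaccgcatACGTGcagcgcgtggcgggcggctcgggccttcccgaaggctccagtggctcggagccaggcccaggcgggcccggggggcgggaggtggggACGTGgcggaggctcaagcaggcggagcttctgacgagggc
A heat shock pair was present in 6 of the 29 member promoters (Serpinh1, Col5a1, Plod2, P4ha2, Col18a1 and Lama4) and in 13.5% of all 33469 promoters of the table. A hypoxia response core was present in 3 of the 29 (Agrn, Plod2 and P4ha2) and in 16.6% of all promoters. The AP-1 core TGANTCA was found in 1 member promoter, that of Col6a1, and in 6.34% of all promoters, and the TEAD core GGAATG in 4, those of Thbs1, Sparc, Lamc1 and Nid1, and in 12.1% of all promoters. A match is a run of letters and not a measured site.

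Fibrillar collagens form the cable-like fibrils of connective tissue. Col3a1, the chain of type III collagen, lay between 26.6 and 62.6 CPM in sham (median 31.5) and between 61.1 and 117 CPM in SAH 1d (median 84.6). Sham-3 reached the lowest SAH 1d library, SAH 1d-6, and otherwise the groups were apart. Col3a1 rose by 1.15 (SE 0.233, adjusted p = 0.00407), and by the same 1.15 without SAH 1d-3. Col5a2, a chain of type V collagen, rose by 0.43 (SE 0.145, adjusted p = 0.0438), and this call was lost in 10 of the 12 fits that left out 1 library.

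Type I collagen, whose chains are encoded by Col1a1 and Col1a2, did not pass. Col1a1 lay between 26.7 and 74.4 CPM in sham (median 34.0) and between 36.9 and 72.4 CPM in SAH 1d (median 49.3). Every SAH 1d library was within the sham range, which sham-1 and sham-3 stretched upward, the libraries with the highest fibroblast marker lists of their group. The log2 fold change was 0.24 (SE 0.270, adjusted p = 0.532) for Col1a1 and 0.10 (SE 0.241, adjusted p = 0.794) for Col1a2. Without sham-1 and sham-3, Col1a1 had a log2 fold change of 0.72 and an adjusted p of 0.0297. As these 2 libraries stretched the sham range upward, a larger value follows in part from leaving them out. The part of fibroblast content in these values was not tested. Col5a1, Col5a3 and Col11a1 had log2 fold changes of 0.38, 0.00 and 0.23, and none of the 3 passed.

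Of the genes around the fibrils, Col16a1 encodes a fibril-associated collagen with interrupted triple helices. It lay between 6.35 and 9.65 CPM in sham (median 7.06) and between 11.8 and 22.1 CPM in SAH 1d (median 18.2). The groups did not overlap, and SAH 1d-3, at 21.2 CPM, was not the highest. Col16a1 rose by 1.28 (SE 0.157, adjusted p = 0.000181). Fbn1, which encodes the microfibril protein fibrillin-1, rose by 1.48 (SE 0.450, adjusted p = 0.0294) with 70.4 CPM in SAH 1d-3 and 9.98 to 17.0 CPM in the rest of its group, against 5.71 to 12.2 CPM in sham, and without SAH 1d-3 it rose by 0.71 (adjusted p = 0.0162). Its call was lost without sham-2, sham-4, sham-5 or sham-6. The collagen VI chains Col6a1 and Col6a2 had log2 fold changes of 0.40 (SE 0.219) and 0.45 (SE 0.238), with adjusted p-values of 0.196 and 0.183, and Col12a1 of 0.28 (SE 0.162, adjusted p = 0.221).

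Type IV collagen is the scaffold of basement membranes, built as trimers of 2 chains from Col4a1 and 1 from Col4a2. Col4a1 lay between 30.0 and 63.2 CPM in sham (median 36.0) and between 62.9 and 331 CPM in SAH 1d (median 87.7). Sham-1, at 63.2 CPM, just reached SAH 1d-1, at 62.9 CPM, and SAH 1d-3 was the highest at 331 CPM. Col4a1 rose by 1.64 (SE 0.376, adjusted p = 0.00778), and by 1.08 without SAH 1d-3 (adjusted p = 0.00115). Col4a2 lay between 15.6 and 32.2 CPM in sham (median 22.6) and between 36.2 and 125 CPM in SAH 1d (median 44.0), with no overlap. It rose by 1.31 (SE 0.287, adjusted p = 0.00612), and by 0.93 without SAH 1d-3.

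Col4a1 and Col4a2 are neighbours that are read in opposite directions from a shared promoter, and the bases between their starts are shown because the pair moved together. In RefSeq's GRCr8 assembly the starts are 84885597 and 84885520 on chromosome 16, which leaves 76 bases, chr16:84885521-84885596, given on the plus strand in lower case as no motif searched was in them.
Col4a1 and Col4a2: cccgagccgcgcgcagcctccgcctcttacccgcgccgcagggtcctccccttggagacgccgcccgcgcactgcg
Of these bases 78.9% were G or C.

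The ratio of Col4a1 to Col4a2 in FPKM was 1.30 ± 0.149 in sham, 1.54 ± 0.236 in SAH 1d and 1.47 ± 0.192 in SAH 7d (SD, n = 6 each). The difference between SAH 1d and sham did not pass an exact permutation test (two-sided p = 0.0519, adjusted p = 0.279 over 9 tests of ratios). The ratio of Col1a1 to Col1a2 was 0.665 ± 0.0918, 0.782 ± 0.186 and 0.669 ± 0.195, and that of Col6a1 to Col6a2 was 1.43 ± 0.292, 1.35 ± 0.171 and 1.19 ± 0.127 in the same order. The smallest adjusted p of the 9 tests was 0.279, and the highest Col1a1 to Col1a2 ratio of the 18 libraries was 1.05, in SAH 7d-5.

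Col8a1 encodes a short-chain collagen of vessel walls and endothelial basement membranes. It lay between 1.35 and 2.21 CPM in sham (median 1.77), and at 2.90 CPM or more in each SAH 1d library, with a median of 4.67. The highest values were 8.58 CPM in SAH 1d-6 and 7.94 CPM in SAH 1d-4, the 2 libraries with high choroid plexus markers, then 6.21 CPM in SAH 1d-3, while the other 3 held 2.90 to 3.14 CPM. Col8a1 rose by 1.60 (SE 0.305, adjusted p = 0.00289), and by 1.13 without SAH 1d-4 and SAH 1d-6 (adjusted p = 0.0128). The 3 SAH 1d libraries without either mark still lay above every sham library.

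Col15a1 and Col18a1 encode the multiplexins, collagens with glycosaminoglycan side chains at the border of basement membranes. Col15a1 rose by 1.10 (SE 0.323, adjusted p = 0.0250) from a sham median of 2.47 CPM to 5.30 CPM, with 12.4 CPM in SAH 1d-3. Its call was lost without sham-2, sham-4, sham-5 or sham-6, and the value without SAH 1d-3 was 0.76. Col18a1 had a log2 fold change of 0.47 (SE 0.245, adjusted p = 0.176), and of 0.18 without SAH 1d-3.

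Laminins are trimers of an alpha, a beta and a gamma chain that anchor cells to the basement membrane. Lamc1, the common gamma chain, lay between 29.0 and 41.0 CPM in sham (median 33.4) and between 42.95 and 157 CPM in SAH 1d (median 53.2). The groups did not overlap, and the 5 libraries other than SAH 1d-3 ended at 62.3 CPM. Lamc1 rose by 1.00 (SE 0.286, adjusted p = 0.0223), and by 0.57 without SAH 1d-3 (adjusted p = 0.00269). The alpha chains of endothelial laminins rose by 0.47 for Lama4 (SE 0.155, adjusted p = 0.0420) and by 0.79 for Lama5 (SE 0.231, adjusted p = 0.0248). The Lama4 call was lost in 8 of the 12 fits that left out 1 library and the Lama5 call in 2, those without sham-2 or sham-6. Lama2, the alpha chain around astrocyte endfeet and muscle cells of vessels, had a log2 fold change of 0.18, and the beta chains Lamb1 and Lamb2 of 0.08 and 0.23, and none of the 3 passed.

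Nid1 and Nid2 encode nidogens, which tie laminin to collagen IV. Their log2 fold changes were 0.56 (SE 0.251, adjusted p = 0.119) and 0.06 (SE 0.285, adjusted p = 0.903). Agrn, which encodes the heparan sulfate proteoglycan agrin of neuromuscular and vascular basement membranes and is also made by neurons, was the member that fell. It lay between 92.7 and 116 CPM in sham (median 98.5) and between 44.9 and 85.9 CPM in SAH 1d (median 75.5). No library overlapped, and SAH 1d-3 was the lowest at 44.9 CPM. Agrn fell by 0.49 (SE 0.129, adjusted p = 0.0156), or by 0.39 without SAH 1d-3. The call was lost without SAH 1d-4 and SAH 1d-6 (-0.48) and without sham-1 and sham-3 (-0.45). All 6 genes of the neuron list fell beside it, by 0.33 for Gad1 to 0.73 for Snap25, against 10.5% of all tested genes. Without SAH 1d-4 and SAH 1d-6, 3 of the 6 were called lower (7.52% of all tested genes). All 6 were called lower without sham-1 and sham-3 (9.03%). The part of neuronal RNA in the fall of Agrn was not tested.

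A row named AABR07073181.1 stood outside the rule, and RefSeq gives that name as a synonym of Hspg2. It held 0.759 to 2.66 CPM in sham, 2.56 to 9.35 CPM in SAH 1d and 1.10 to 7.88 CPM in SAH 7d. The highest libraries were again SAH 1d-3 and SAH 7d-5, and sham-1, at 2.66 CPM, reached the lowest SAH 1d library.

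Among matricellular and adhesive proteins, Fn1 encodes fibronectin, the plasma and cell-surface glycoprotein of early wound matrix. It lay between 42.2 and 73.9 CPM in sham (median 52.1) and between 79.9 and 226 CPM in SAH 1d (median 103). The groups did not overlap. Fn1 rose by 1.09 (SE 0.234, adjusted p = 0.00567), and by 0.81 without SAH 1d-3 (adjusted p = 0.00111). Postn, the gene of periostin, rose by 1.01 (SE 0.295, adjusted p = 0.0246) from a sham median of 5.21 CPM (2.78 to 7.39) to 8.79 CPM (5.61 to 18.4), and its call was lost without sham-2 or sham-5.

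Thbs1 and Tnc had large fitted changes that came mainly from 1 library. Thbs1, the gene of the antiangiogenic and TGF-beta activating protein thrombospondin-1, lay between 1.57 and 3.64 CPM in sham (median 2.47), at 94.9 CPM in SAH 1d-3 and between 4.48 and 7.75 CPM in the remaining 5 of that group. All 6 SAH 1d libraries were above all sham libraries. Thbs1 rose by 3.03 (SE 0.824, adjusted p = 0.0177) with SAH 1d-3 and by 1.12 (SE 0.223, adjusted p = 0.00263) without it. Tnc, the gene of the glial scar glycoprotein tenascin-C, lay at 103 CPM in SAH 1d-3, between 9.69 and 21.7 CPM in the remaining 5 and between 8.09 and 15.0 CPM in sham, with sham-1 the highest of its group. It rose by 1.65 (SE 0.516, adjusted p = 0.0323), and by 0.71 (SE 0.210, adjusted p = 0.0228) without SAH 1d-3. The call for Tnc was lost in 5 of the 12 fits that left out 1 library, namely sham-2 to sham-6. Neither Thbs1 nor Tnc was called without sham-1 and sham-3. Thbs1 was called in 19 of the 23 alternative fits that gave it an adjusted p, and DESeq2 gave it none. Sparc and Thbs2 had log2 fold changes of -0.01 (SE 0.148) and 0.26 (SE 0.295) and did not pass.

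The small leucine-rich proteoglycans bind collagen fibrils and set their spacing. Bgn, the gene of biglycan, rose by 0.80 (SE 0.255, adjusted p = 0.0355) from a sham median of 31.1 CPM (23.7 to 45.7) to 46.3 CPM (38.3 to 112), with SAH 1d-3 the highest. Without SAH 1d-3 the value was 0.50. The call was lost in 5 of the 12 fits that left out 1 library, those without sham-2, sham-4, sham-5, sham-6 or SAH 1d-2. Dcn, the gene of decorin, had a log2 fold change of 0.65 (SE 0.342, adjusted p = 0.176) with SAH 1d-3 at 104 CPM, and of 0.18 without it. Lum, the gene of lumican, lay between 6.79 and 20.0 CPM in sham and between 4.99 and 14.1 CPM in SAH 1d, and its log2 fold change was -0.39 (SE 0.263, adjusted p = 0.286).

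**Figure D3:**
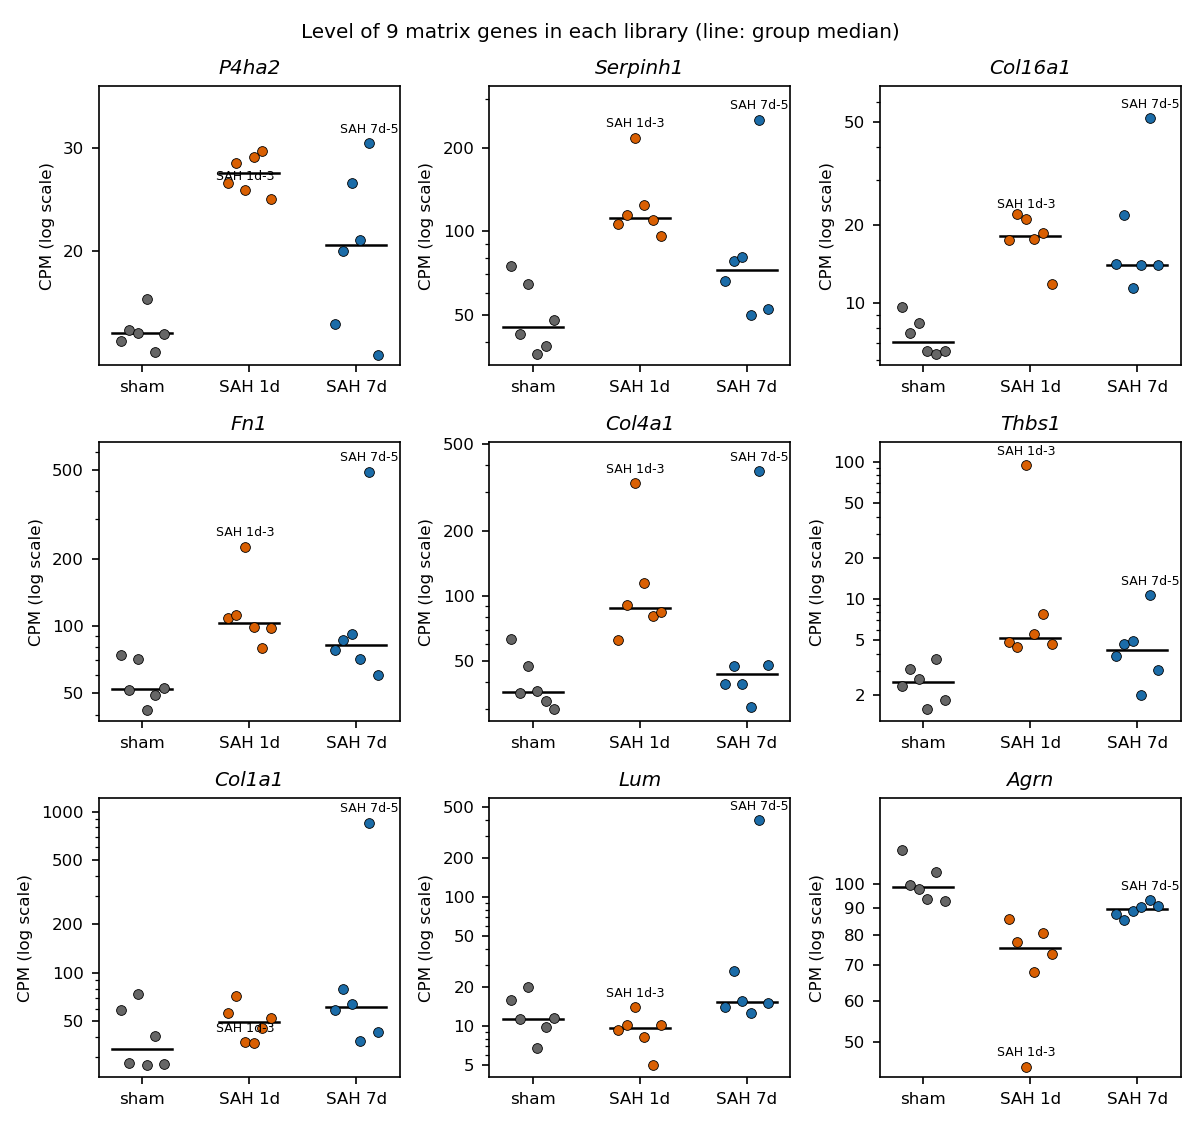
CPM of 9 members in each library on log axes, by group (points are libraries, lines are group medians, SAH 1d-3 and SAH 7d-5 are named). P4ha2, Serpinh1, Col16a1, Fn1 and Thbs1 have no overlap between sham and SAH 1d, Agrn lies lower in all SAH 1d libraries, and SAH 7d-5 is the highest of its group for all 9 genes, by the most for Lum and Col1a1.

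The comparison of SAH 7d with sham asked which matrix genes differed after 7 days. It shares the sham libraries with the comparison of SAH 1d, so the values of both are given side by side and their likeness was not tested. No member passed in either direction, and 0.0% of all tested genes did in edgeR. At an unadjusted p under 0.05, 24 members were higher and 1 was lower, against 11.7% and 3.66% of all tested genes. DESeq2 called 1 member, Col16a1 (log2 fold change 1.51, adjusted p = 0.00325), against 2.2% of all tested genes, and gave no adjusted p for 23 members. Of the members 40 had a log2 fold change above 0, against 49.4% of all tested genes, and the median was 1.14.

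These values rested largely on SAH 7d-5. Without it the median log2 fold change of the members was 0.24, and 33 of 41 lay above 0 (49.0% of all tested genes). At an unadjusted p under 0.05, 10 were higher and 1 lower (8.09% and 4.53%), and again 0 passed in edgeR. By role, the median without SAH 7d-5 was 0.02 for basement membrane collagens, 0.10 for laminins and linkers, 0.28 for enzymes and chaperone, 0.31 for fibrillar collagens, 0.34 for fibril-associated and microfibril genes, 0.44 for small leucine-rich proteoglycans and 0.46 for matricellular and adhesive proteins. Col16a1 was the member with no overlap between SAH 7d and sham, against 0.797% of all tested genes, and no member lay below in this way (0.428%). Without SAH 7d-5, Col16a1 lay above (0.873%) and Agrn lay below (0.52%) every sham library. Col16a1 held 11.4 to 51.9 CPM in SAH 7d (median 14.1), all above the 9.65 CPM of the highest sham library. Its log2 fold change was 1.51 (SE 0.350, adjusted p = 0.214), and 1.02 without SAH 7d-5 (SE 0.169, adjusted p = 0.0948), beside the 1.28 of SAH 1d.

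The next largest values with small errors were those of Bgn and Col3a1. Bgn held 42.6 to 69.6 CPM in the 5 SAH 7d libraries other than SAH 7d-5, with a log2 fold change of 0.75 (SE 0.167, adjusted p = 0.118), and overlapped sham through sham-1. Col3a1 held 45.7 to 100.3 CPM in the same 5 libraries, with a log2 fold change of 0.85 (SE 0.245, adjusted p = 0.167). These p-values are from edgeR. DESeq2 without SAH 7d-5 called Bgn (adjusted p = 0.00257), Col3a1 (adjusted p = 0.0232) and Col16a1 higher, against 2.33% of all tested genes. Fn1 and Sparc stood at 0.46 and 0.47 without SAH 7d-5, and neither passed. Agrn, with 85.5 to 93.0 CPM in the 6 SAH 7d libraries, had a log2 fold change of -0.17 (SE 0.0645, adjusted p = 0.273), beside the -0.49 of SAH 1d.

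SAH 7d-5 was the highest SAH 7d library for all 41 members, and for 38.6% of all tested genes. Its level was at least 2-fold above the median of the other 5 for 36 members and at least 4-fold above it for 26 members, against 17.8% and 7.94% of all tested genes. The median of this fold was 6.46 over the members and 0.999 over all tested genes. The largest were those of Col3a1, Lum and Col15a1. Col3a1 held 1785 CPM against a highest other value of 100.3 CPM (27.02-fold over the median of the other 5). Lum held 394 CPM against 27.1 CPM (25.97-fold), and Col15a1 58.7 CPM against 4.67 CPM (21.2-fold). Col1a1, at 853 CPM, was 14.4-fold and Col6a2, at 222 CPM, 12.2-fold over the median of the others.

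The members that stood out least in SAH 7d-5 were Agrn (1.05-fold), P4ha2 (1.53-fold), Col12a1 (1.66-fold), Col5a3 (1.94-fold), P4ha1 (1.94-fold), Lama5 (2.07-fold) and Lamb2 (2.63-fold). Summed FPKM of the fibrillar collagens was 686 in SAH 7d-5 and 34.2 to 55.5 in the other 5 libraries, while that of laminins and linkers was 146 against 39.2 to 48.2. The same library held the highest meningeal fibroblast list of all 18 (mean log2 CPM 6.03 against 3.68 to 4.48 in the other SAH 7d libraries), the highest macrophage list (7.18 against 2.37 to 3.75), the highest microglia list (5.99 against 3.25 to 4.71) and the highest proliferation list (4.21 against 0.45 to 1.67). Its neuron list was the lowest of all 18 (7.88 against 9.25 to 9.74). The part of these cell types in the matrix values of SAH 7d-5 was not tested.

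**Figure D4:**
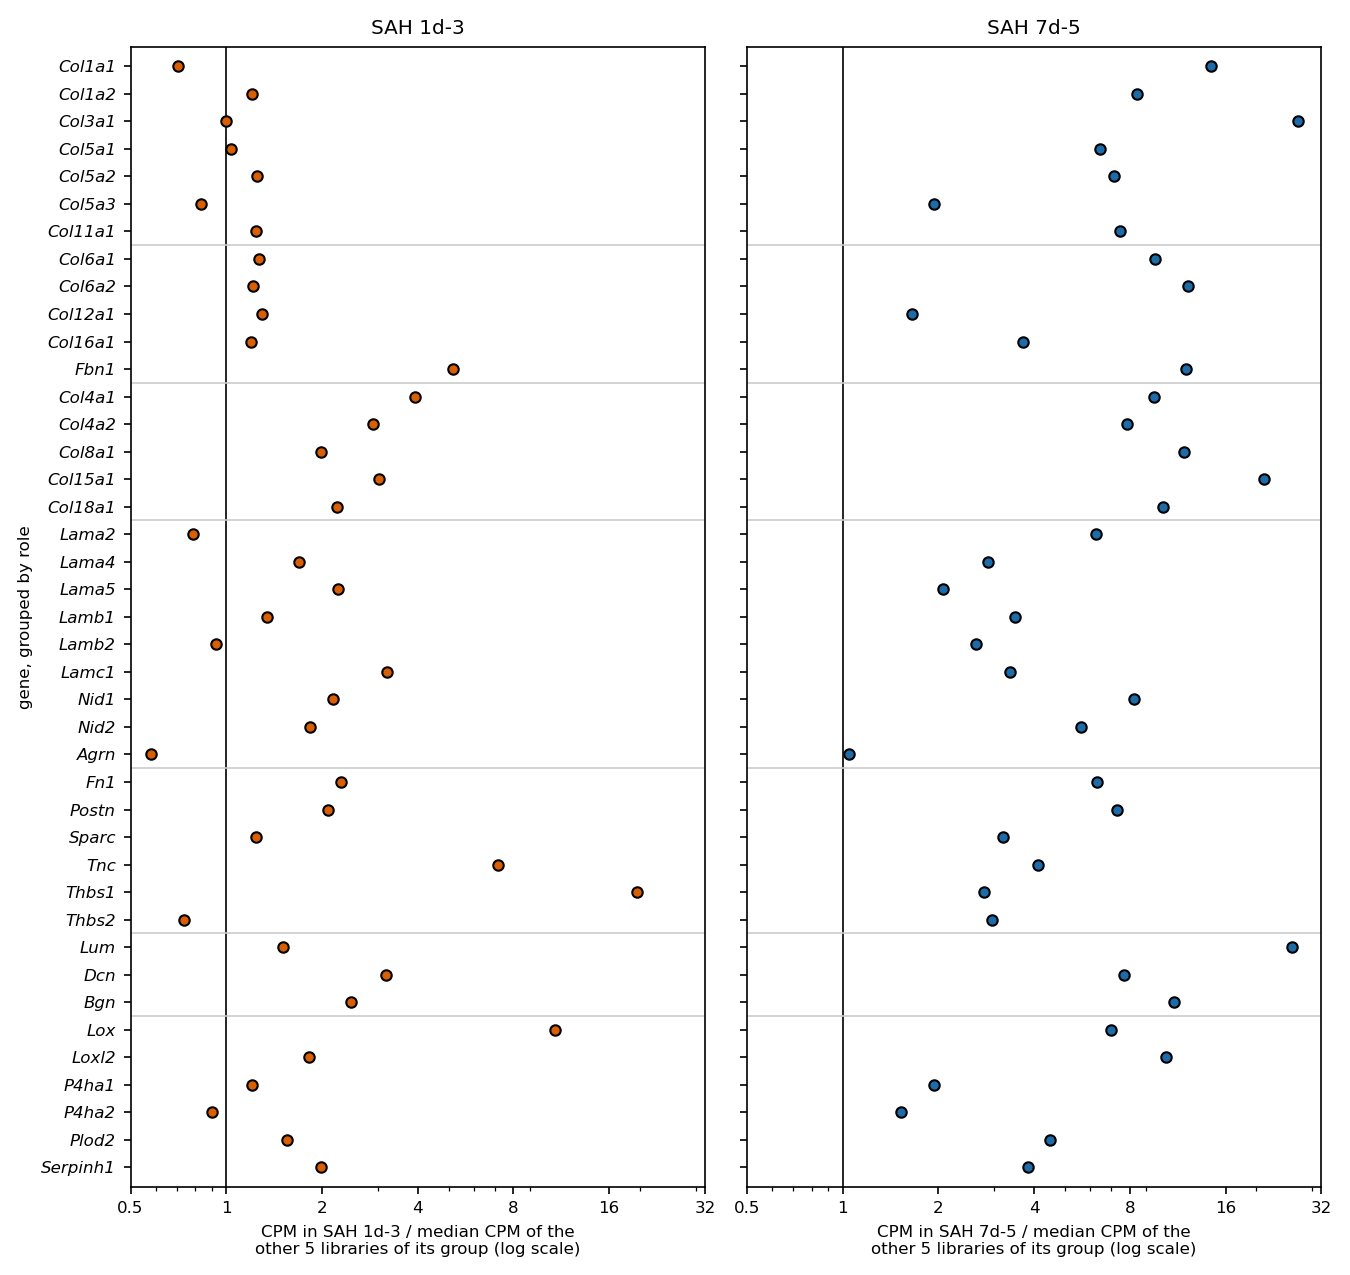
CPM of each member in SAH 1d-3 (left) and SAH 7d-5 (right) divided by the median of the other 5 libraries of its group, on a log axis with a line at 1. In SAH 7d-5 all 41 points lie to the right of 1 with fibrillar collagens, collagen VI, Col15a1 and Lum far out, whereas in SAH 1d-3 Thbs1, Lox, Tnc, Fbn1 and Col4a1 lead and fibrillar collagens lie near 1.

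SAH 1d-3 had another set of high members. It was the highest SAH 1d library for 25 of 41 members (33.0% of all tested genes), at least 2-fold above the median of the other 5 for 15 and at least 4-fold for 4 (9.01% and 2.51%), with a median fold of 1.55 over the members and 0.975 over all tested genes. Thbs1 (19.6-fold), Lox (10.8-fold), Tnc (7.16-fold), Fbn1 (5.18-fold) and Col4a1 (3.92-fold) led. The fibrillar chains Col1a1 (0.707-fold), Col3a1 (0.996-fold) and Col5a1 (1.03-fold) did not stand out there. Its macrophage list was at a mean log2 CPM of 5.62 against 3.63 to 3.97 in the other SAH 1d libraries and its endothelial list at 5.47 against 4.02 to 4.97, whereas its fibroblast list, at 4.02, was within their range of 3.27 to 4.29. Of the 12 fibroblast genes, 6 were highest of the group in SAH 1d-3 (Pdgfra, Slc47a1, Mgp, Foxc1, Foxc2 and Crabp2, with Mgp at 62.4 CPM) and 3 were lowest (Slc6a13, Slc22a6 and Igf2, with Slc6a13 at 1.09 CPM). Of the 7 endothelial genes, 5 were highest of the group in SAH 1d-3 (Flt1, Cdh5, Tek, Kdr and Esam) and 1 was lowest (Slco1a4). The endothelial mean includes Cldn5, which was at 0 CPM in some libraries and so widens the range. The summed CPM of that list was 426 in SAH 1d-3 against 282 to 338 in the other SAH 1d libraries. The part of these cell types was not tested. SAH 1d-3 and SAH 7d-5 shared high Col4a1 (331 and 376 CPM) but not high Col3a1 (84.4 and 1785 CPM).

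Between day 1 and day 7, 0 members passed in either direction in edgeR with all libraries, against 0.282% of all tested genes that were higher at day 7 and 1.08% that were lower. At an unadjusted p under 0.05, 6 members were higher and 1 was lower, against 6.66% and 8.05% of all tested genes, and DESeq2 called 0 in either direction (1.99% and 3.5%), with no adjusted p for 25 members. Without SAH 7d-5, 6 members fell from SAH 1d to SAH 7d and 0 rose, against 5.19% and 3.18% of all tested genes. These were Col8a1 (-1.72, SE 0.332), Col4a1 (-1.65, SE 0.397), Col4a2 (-1.44, SE 0.294), Postn (-1.07, SE 0.291), Serpinh1 (-0.98, SE 0.218) and P4ha1 (-0.46, SE 0.111), with adjusted p-values from 0.0114 to 0.0424.

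At day 7 the levels of most of these genes lay near those of sham. Col4a2 held 19.5 to 24.4 CPM in the 5 SAH 7d libraries, below the 36.2 CPM of the lowest SAH 1d library and within the sham range of 15.6 to 32.2 CPM. Col8a1 held 1.42 to 1.97 CPM and Col4a1 30.9 to 48.3 CPM in the same 5 libraries, also within their sham ranges. Serpinh1, at 49.9 to 80.5 CPM, lay below every SAH 1d library and overlapped sham. In the 5 libraries, 6 members lay below every SAH 1d library, the other 2 being Lama4 and Lamc1, against 5.43% of all tested genes.

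With both SAH 1d-3 and SAH 7d-5 left out, 9 members fell (7.49% of all tested genes) and 1 rose (6.13%). P4ha2 (-0.53), Lama4 (-0.36) and Lamc1 (-0.55) joined the 6, and Lum rose by 0.97 (SE 0.235, adjusted p = 0.0187). Lum held 12.6 to 27.1 CPM in those 5 SAH 7d libraries and 4.99 to 10.3 CPM in the 5 SAH 1d libraries, with no overlap, and both ranges overlapped that of sham. P4ha2 held 13.3 CPM in SAH 7d-6, just below the lowest sham library, 15.0 CPM in SAH 7d-1, within the sham range, and 26.2 CPM in SAH 7d-3, within the range of SAH 1d.

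Lists of other matrix genes were compared in the same fits, with the same 14.9% and 10.5% of all tested genes beside them. These lists were also chosen with earlier results of these data known. Of 23 other collagen processing genes 9 rose at SAH 1d and 0 fell, led by Loxl4, a lysyl oxidase (2.41, SE 0.563), P3h2, a prolyl 3-hydroxylase (1.25, SE 0.351), and Fkbp10, a collagen-binding prolyl isomerase (1.13, SE 0.185). Without SAH 1d-3 the count was also 9. Of 23 other collagens 3 rose, namely Col22a1 (2.64, SE 0.865), Col7a1 of anchoring fibrils (2.09, SE 0.446) and Col27a1 (0.60, SE 0.160), and 3 fell, namely Col25a1, a transmembrane collagen of neurons (-1.01, SE 0.316), Col11a2 (-0.87, SE 0.225) and Col9a2 (-0.64, SE 0.194). Of 15 other basement membrane genes 0 rose and 1 fell, Fras1 (-0.40, SE 0.121). Col22a1, Col25a1, Col9a2 and Fras1 were not called without SAH 1d-4 and SAH 1d-6. Col11a2, Col9a2 and Fras1 were not called without sham-1 and sham-3.

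Of 32 other matricellular, elastic and small leucine-rich genes 10 rose and 2 fell. Spp1, the gene of osteopontin (5.90, SE 0.558), Thbs4 (3.09, SE 0.590) and Ccn1 (2.53, SE 0.711) had the largest rises, and Aspn (-0.78, SE 0.259) and Sparcl1, an astrocyte paralogue of Sparc (-0.36, SE 0.108), fell. Of 16 genes of the glial proteoglycan and hyaluronan matrix 4 rose and 2 fell. Cd44, the hyaluronan receptor (3.57, SE 0.521), Has1, a hyaluronan synthase (2.66, SE 0.884), and Tnfaip6 (1.37, SE 0.424) led the rises, and the link protein gene Hapln1 (-1.16, SE 0.268) and the brevican gene Bcan (-0.66, SE 0.186) fell. Of 22 matrix receptor genes 6 rose and 0 fell, led by Sdc1 (3.20, SE 0.792), the fibronectin receptor chain Itga5 (2.78, SE 0.584) and Itgb3 (2.40, SE 0.664). Without SAH 1d-3 the glial matrix list had 3 rises and 4 falls, the matrix receptors 6 and 1, and the matricellular list 11 and 2. Has1 was not called without SAH 1d-3, and neither Has1 nor Tnfaip6 was called without sham-1 and sham-3. The falls of Aspn, Sparcl1 and Bcan were not called in that fit, nor without SAH 1d-4 and SAH 1d-6. At SAH 7d against sham 0 genes of the 6 lists passed, where 0.0% of all tested genes did.

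Markers of the cell types in the tissue were compared in the same fits. At SAH 1d, 5 of 12 meningeal fibroblast genes rose (Mgp, Crabp2, Cemip, Aldh1a2 and Islr), 2 of 7 endothelial genes rose (Cdh5 and Esam), 1 of 8 mural cell genes rose (Tagln), and 4 of 5 macrophage genes rose (Cd14, Msr1, Lyz2 and Cd163). Of all tested genes 14.9% rose and 10.5% fell. The median log2 fold change was 0.67 over the fibroblast list, 0.33 over the endothelial list, 0.23 over the mural list and 1.40 over the macrophage list, beside 0.56 over the members. Without SAH 1d-3 these medians were 0.32, 0.08, 0.02 and 1.17, beside 0.39. Of the other lists, neuron genes fell as given above, Gfap rose and Aldh1l1 fell among 6 astrocyte genes, P2ry12 fell among 5 microglia genes, of which Aif1, Csf1r and Cx3cr1 rose when SAH 1d-3, or sham-1 and sham-3, were left out, 3 of 6 proliferation genes and 2 of 5 choroid plexus genes rose, and no gene of the oligodendrocyte and red cell lists passed. Without SAH 1d-4 and SAH 1d-6, 0 genes of the choroid plexus and proliferation lists rose (13.1% of all tested genes). In the same fit 3 of 6 neuron genes fell (7.52%). Cldn5, an endothelial marker, was at 0 CPM in some libraries of each group, among them SAH 7d-5. The part of cell numbers in the changes of the members was not tested.

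**Figure D5:**
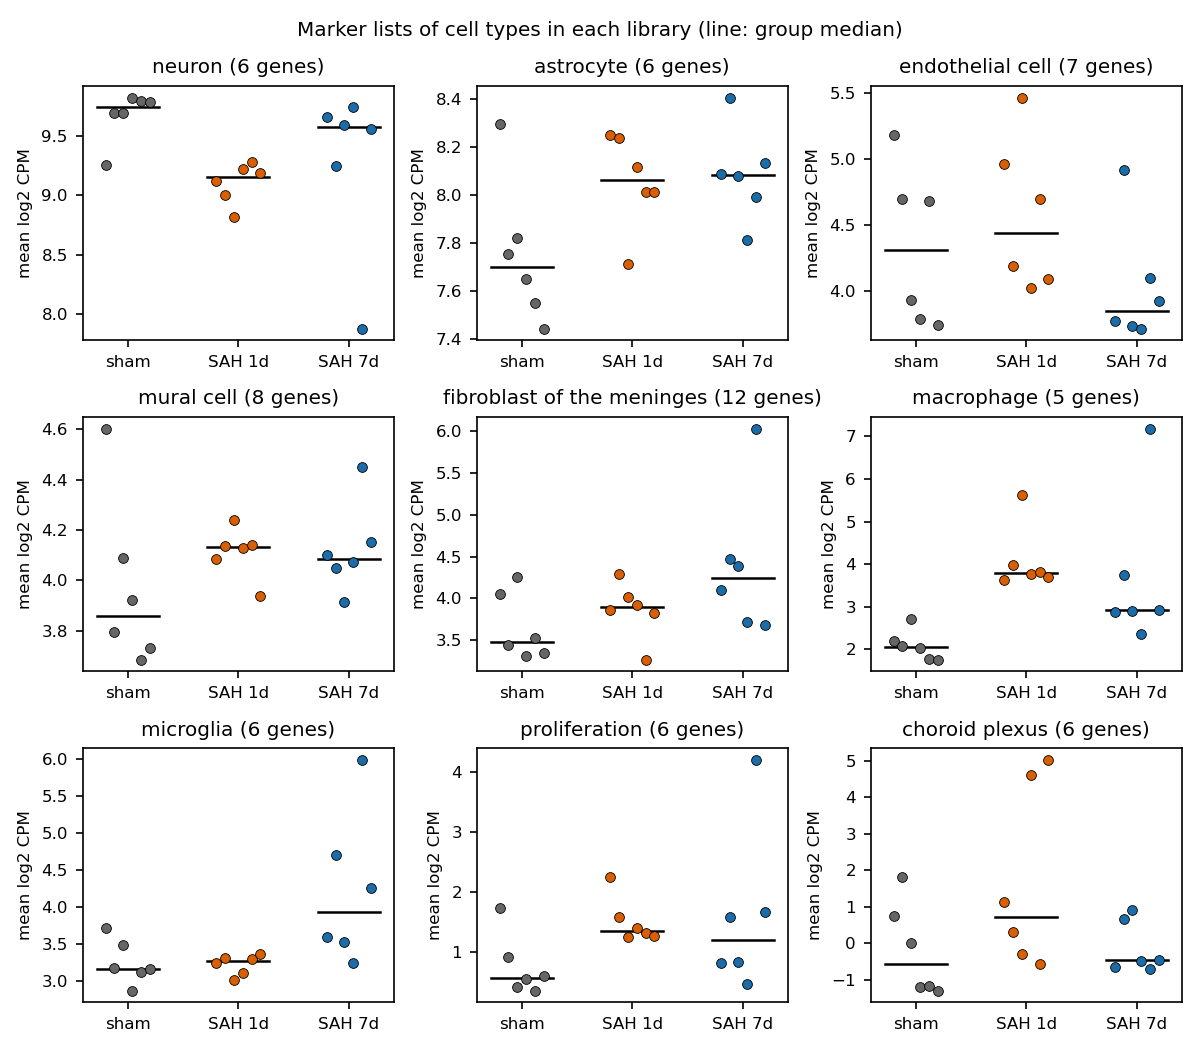
Mean log2 CPM of 9 marker lists in each library, by group (points are libraries, lines are group medians). SAH 7d-5 has the highest fibroblast (6.03), macrophage (7.18), microglia (5.99) and proliferation (4.21) lists and the lowest neuron list (7.88), and SAH 1d-4 and SAH 1d-6 have the highest choroid plexus lists (4.60 and 5.03).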

How the data were processed

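Total RNA was extracted with Trizol from rat cortex and sequenced as 18 libraries, 1 per rat, in 3 groups of 6 (sham, SAH 1d, SAH 7d) taken from the library descriptions. The authors trimmed and aligned the reads before deposit, and the deposited counts are whole-number read counts per gene with no normalization. The deposited FPKM values are fragments scaled to library total and gene length, made by the authors from the same reads. The submitters' processing notes name fastp, HISAT2, DESeq2 1.16.1 and the mouse build mm9, while the study's methods name the rat build Rnor_6.0, which matches the rat gene identifiers, so no coordinates of the files were used. No source used here gives the counting program or strand setting, so reads of overlapping antisense genes could not be told apart. 0 columns belonged to other samples.

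The 41 member genes were found by symbol in the table. Counts of 18444 genes that passed edgeR's filter on low counts were scaled by the trimmed mean of M values and tested with edgeR 4.0.16 in R 4.3.3 (quasi-likelihood F test, Benjamini-Hochberg adjustment over all tested genes, threshold 0.05), in a separate fit of 12 libraries for each of 3 comparisons. The standard error is the log2 fold change divided by the square root of F. FPKM served for levels between genes and chain ratios, which were compared by two-sided exact permutation tests over 924 splits, whose smallest p is 0.00216. DESeq2 1.42.0, limma 3.58.1, other filters, a replicate block and left-out libraries were alternatives. The fits were tested on simulated counts drawn independently for each gene. No simulated library was set apart across many genes, so this does not test the fits for such libraries. Figures and summaries used Python 3.11.15 with pandas 2.3.3 and scipy 1.17.1.

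Every member is named. From the 6 lists of other matrix genes, at most the 3 largest called rises and 3 largest called falls are named. The members and all lists were chosen with earlier results of these data known. Same-numbered libraries of different groups did not deviate together, so replicate numbers were not taken as pairs. Totals were 27270026 to 38271014 counts per library. The errors hold both the spread between rats and counting error, which were not separated. Sex was not stated.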

Additional observations from a re-analysis of the deposited data

Results flagged for a closer look

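Within each group of 6 libraries, Dixon's test on log2 CPM set apart 1 library for 52 of 123 member and group pairs. Its threshold flags a single pair by chance about 1 time in 20. The pairs are not independent, as 33 of the flags were in SAH 7d-5 and 15 in SAH 1d-3, so the count is no test. No explanation was weighed.

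SAH 7d-5 was set apart as high for 33 members, with these levels in CPM. Fibrillar collagens were Col1a1 at 853, Col1a2 at 621, Col3a1 at 1785, Col5a1 at 53.2, Col5a2 at 88.7, Col5a3 at 30.2 and Col11a1 at 33.6. Fibril-associated and microfibril genes were Col6a1 at 194, Col6a2 at 222 and Fbn1 at 120.2. Basement membrane collagens were Col4a1 at 376, Col4a2 at 170.4, Col8a1 at 18.6, Col15a1 at 58.7 and Col18a1 at 206. Laminins and nidogens were Lama2 at 84.1, Lama4 at 53.0, Lama5 at 16.1, Lamb1 at 128, Lamb2 at 109, Lamc1 at 112, Nid1 at 251 and Nid2 at 53.4. Matricellular genes were Fn1 at 490.2, Postn at 33.2 and Tnc at 48.4, and proteoglycans were Lum at 394, Dcn at 240.1 and Bgn at 641. Enzyme and chaperone genes were Lox at 67.1, Loxl2 at 22.1, Plod2 at 30.5 and Serpinh1 at 253.

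SAH 1d-3 was set apart for 15 members. It was high for Fbn1 at 70.4, Col4a1 at 331, Col4a2 at 125, Col18a1 at 44.8, Lama4 at 42.1, Lama5 at 22.6, Lamc1 at 157, Nid1 at 83.6, Fn1 at 226, Tnc at 103, Thbs1 at 94.9, Dcn at 104, Lox at 127 and Serpinh1 at 218 CPM, and low for Agrn at 44.9 CPM.

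SAH 1d-2 was high for Col1a2 at 85.9 and Col5a1 at 11.4 CPM, SAH 1d-6 was low for Col16a1 at 11.8 CPM, and sham-1 was high for Tnc at 15.0 CPM.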

How the results depend on the processing

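Shares in parentheses are of all genes tested in the same fit. For SAH 1d against sham, the 19 members called higher became 6 with all 18 libraries in 1 fit (8.18%) and 11 to 20 when 1 library was left out (11.4% to 15.4%), and DESeq2 called 17 (16.6%) with no adjusted p for 3 members. The 1 lower call (Agrn) became 0 in limma on log2(FPKM + 1) without a filter (3.02%), 0 without SAH 1d-4 and SAH 1d-6 (7.52%), and 0 without sham-1 and sham-3 (9.03%). For SAH 7d against sham, the 0 higher calls became 1 in DESeq2 (2.2%). They became 3 in DESeq2 without SAH 7d-5 (2.33%), namely Bgn, Col3a1 and Col16a1. The 1 member above sham with no overlap stayed 1 without SAH 7d-5 (0.873%). For SAH 7d against SAH 1d, the 0 higher calls became 1 with all 18 libraries (1.28%), 1 with both SAH 1d-3 and SAH 7d-5 left out (6.13%), and 1 in DESeq2 without SAH 7d-5 (6.61%). The 0 lower calls became 8 in limma voom with sample weights (8.37%) and 9 with both of these left out (7.49%). They became 10 in DESeq2 without SAH 7d-5 (8.28%) and 0 to 6 when 1 library was left out (0.493% to 5.19%). The 0 members below with no overlap became 6 without SAH 7d-5 (5.43%). Col15a1 reversed there in DESeq2 without SAH 7d-5 (-0.99, adjusted p = 0.047). The cause of these changes was not tested.

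With the replicate number as a block, 18 members were higher (12.3%) and 1 was lower (9.28%) in SAH 1d, and 0 were called in either direction in both other comparisons (0.0% to 0.141%). Same-numbered libraries correlated between -0.252 and 0.197. Groups of 6 with 1 library apart leave wide errors at day 7, and replicates came from separate rats of unstated sex. Members near the threshold, such as Col5a2, Lama4 and Lox, should be read by their errors.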
